A study of Mus musculus with 8 samples.

Results

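The 44 genes described here encode the machinery with which a cell moves newly made proteins into the endoplasmic reticulum (ER), cuts, glycosylates and folds them there, and responds when folding falls behind. They were taken by symbol from the known parts of this machinery, at a time when earlier results of these data were known. They comprise 5 genes of the signal recognition particle (SRP) and its receptor, 5 of the translocon, 4 of the translocon-associated protein (TRAP) complex, 5 of the signal peptidase, 4 of the oligosaccharyltransferase, 10 chaperones, 6 enzymes of disulfide bonds and 5 stress regulators. They are 44 of the 27998 genes in the deposited tables, and 43 were tested in every comparison. Srp54a, the GTPase subunit of the SRP, had 0 of 200313801 unique molecular identifiers (UMIs, 1 per captured transcript) in 51 sums of cells, which allows up to 0.0150 CPM (counts-per-million). The mouse genome carries near-identical Srp54 copies between which reads may not be told apart, so this 0 is uncertain.

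Single mammary cells of C57BL/6N mice were sequenced from 2 mice at each of 4 stages. The nulliparous mice (NP) were 8 weeks old, the gestation mice (G) were at day 14.5, the lactation mice (L) at day 6, and the post-involution mice (PI) had weaned naturally 11 days before. In all 8 libraries live cells were sorted for EpCAM, an epithelial surface protein, and against CD31, CD45 and Ter119, markers of endothelial, haematopoietic and red cells. Cells were grouped by the deposited clusters, C1 to C19, and UMIs were summed per mouse and cluster. A level is given as the CPM of such a sum, or as CPM after the transcripts of 8 milk protein genes are left out of the total (non-milk CPM). Both are shares of the sum, so they do not show the amount of RNA per cell.

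The libraries held 13785920 (PI1) to 35711533 (G1) UMIs, with a median of 3770 (L1) to 9624 (G1) UMIs per cell. Between 51 and 170 barcodes per library were shared with another library, and 0 of them were among the cells used. The secretory cells of lactation were few, at 42 and 47 cells in C9 and 142 and 89 cells in C11. Milk protein transcripts took 447538 and 417202 CPM of the C9 sums, against 96653 and 57393 CPM of C8 and 72147 and 59197 CPM of C11. In C9, C11 and C8 a level in CPM is therefore lowered by the milk transcripts themselves. Non-milk CPM is used there, except in the sums of the whole secretory lineage.

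The ER pathway begins when the SRP binds a signal peptide as it leaves the ribosome and docks at its receptor, and the chain is threaded through the Sec61 channel with the help of the TRAP complex. Signal peptidase removes the peptide, oligosaccharyltransferase adds the sugar chain, and chaperones and disulfide enzymes fold the product. When unfolded protein builds up, 3 sensors in the ER membrane act through the transcription factors Xbp1, Atf6 and Atf4, which raise the folding machinery, and through Ddit3 (CHOP), which is linked to cell death. Milk is made along this route, since caseins, whey acidic protein and alpha-lactalbumin are all secreted proteins.

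The members fell into different orders over the clusters depending on their role. Since the clusters were made from the same transcripts, the levels below are a description with no test. Each cluster was represented by the stage that holds most of its cells. On that basis, in non-milk CPM, 12 of the 44 members were highest in the differentiated alveolar cells of lactation (C9) and 10 in the alveolar progenitors of lactation (C11), while 11 were lowest in the basal cells of lactation (C14) and 11 in the cluster with immune markers (C17). The C9 group held mainly genes of translocation, signal cleavage and glycosylation, and the C11 group mainly chaperones and disulfide enzymes. With milk transcripts kept in the total, 2 members were highest in C9, and Atf4, Atf6, Canx, Pdia3, Sec62 and Srp72 were lowest there.

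For the TRAP complex, which surrounds the translocon, the summed level of its 4 genes in C9 was 2254 and 1857 non-milk CPM in the L1 and L2 mice. In C8, the differentiated alveolar cells of gestation, it was 1337 and 1160 non-milk CPM, in the progenitors C11 it was 1085 and 938, and in the basal cells C14 it was 411 and 404. The 10 chaperones had another order: 7642 and 6435 non-milk CPM in C11, 3355 and 2817 in C9, 2686 and 2490 in C8 and 1597 and 1628 in C14. Both chaperone sums of C11 lay above every other sum, of which the highest were 6162 non-milk CPM in C17 of the L2 mouse, a cluster with immune markers, and 4608 in C18 of the G1 mouse.

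**Figure D1:**
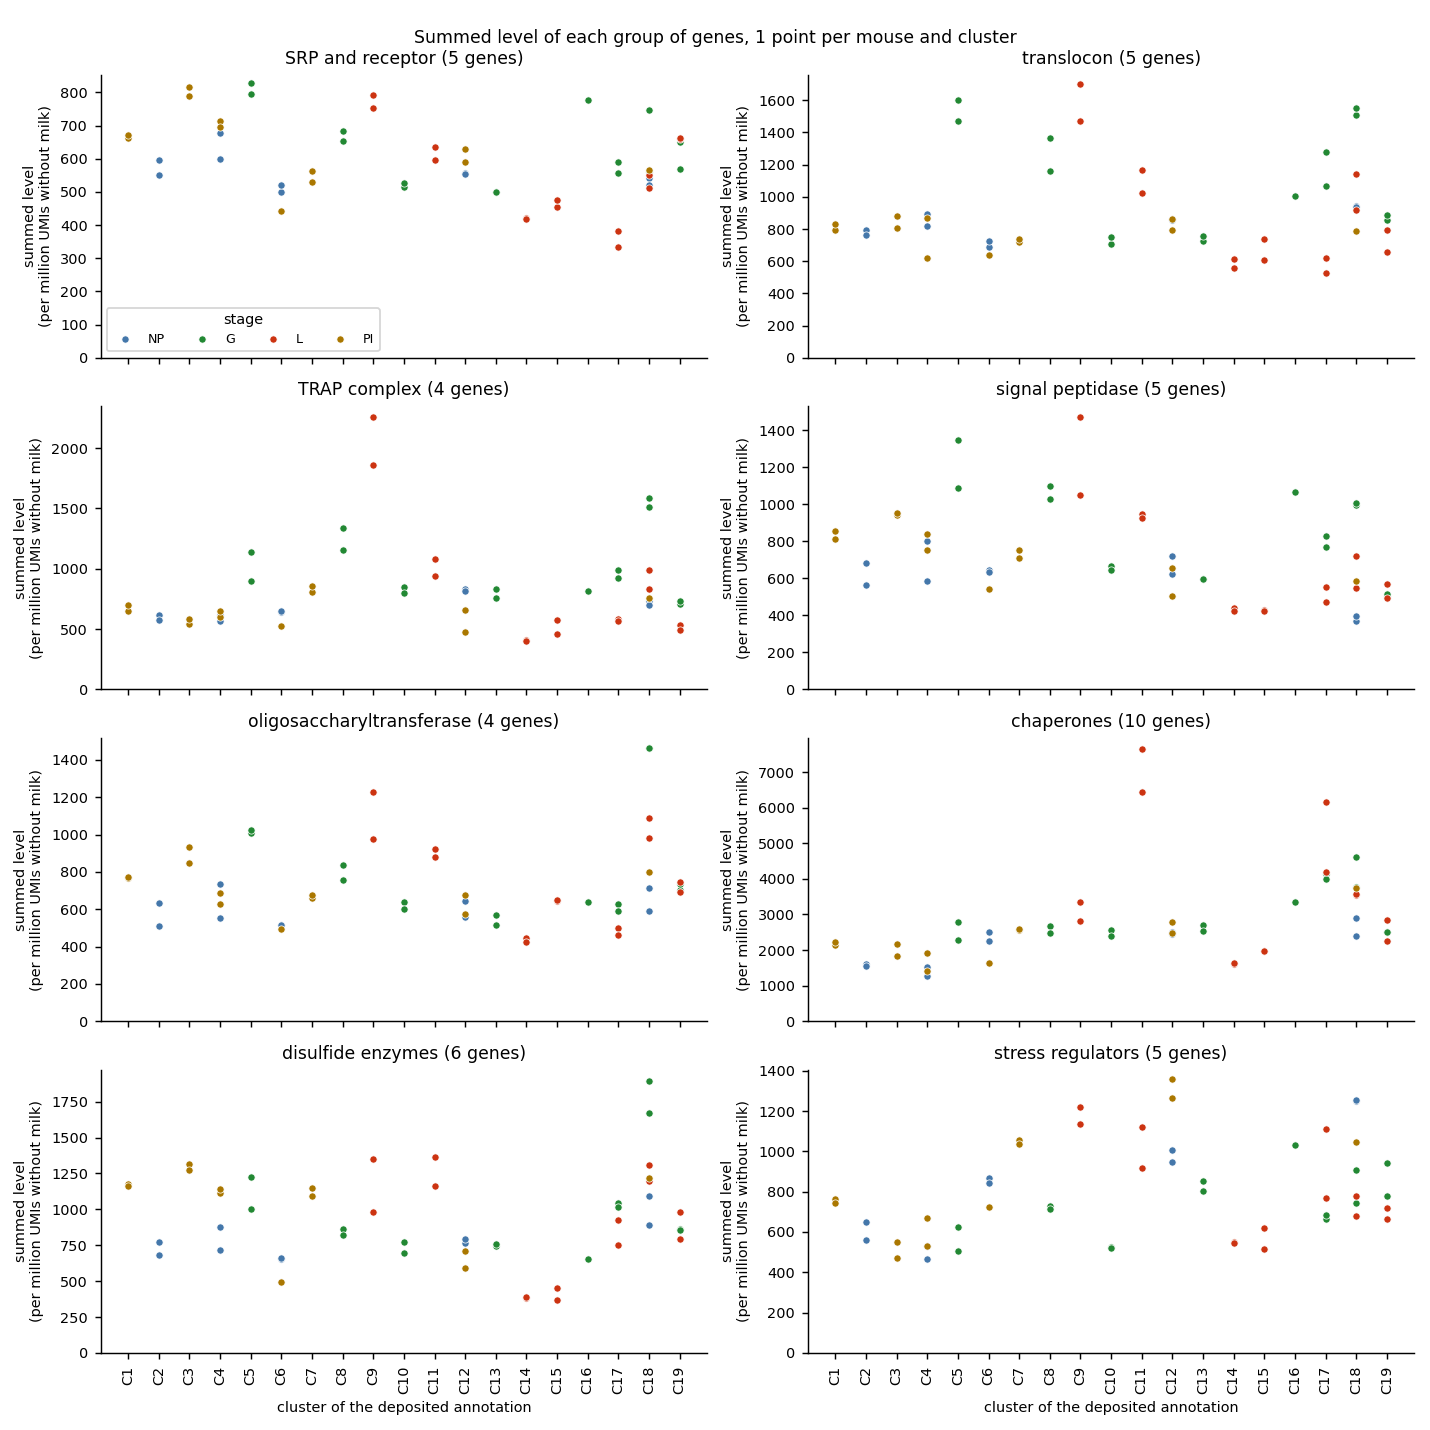
Summed level of each of the 8 groups of genes (vertical axis, non-milk CPM, from 0) in clusters C1 to C19 (horizontal axis), with 1 point per mouse coloured by stage. The TRAP complex points of lactation in C9 (1857 and 2254) top their panel, while the chaperone points of lactation in C11 (6435 and 7642) top theirs.

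The hormone-sensing clusters were spread over the range. The sum of all 44 members had means of 6057 and 6102 non-milk CPM in C2 and C4 of NP, with C14 (4822) and C15 (5675) the clusters below them. It was 9826 in C5. C5, the hormone-sensing cells of gestation, held only 20 and 41 cells, and its translocon sum was 1471 and 1604 non-milk CPM, beside 1701 and 1473 in C9, so the mice of both clusters overlapped. Qsox1, a secreted and Golgi sulfhydryl oxidase that makes disulfide bonds, had its highest level in C3, the hormone-sensing cells of PI, with a mean of 594 ± 164 non-milk CPM (SD, n = 2). Among cells of NP, Qsox1 was at a mean of 264 in C4, 175 in C2 and 47.2 non-milk CPM in the luminal progenitors C6. Atf4, a translation-controlled factor of the stress response, was at a mean of 768 ± 24.3 non-milk CPM in the luminal progenitors of PI (C7) and at 298 ± 24.9 in C4. The few basal cells of PI (C12) stood above C7 in both mice, at 762 and 881 non-milk CPM against 751 and 786. Herpud1, a membrane protein of ER-associated degradation, was at 257 ± 94.2 non-milk CPM in C17 of lactation, at 151 ± 4.86 in the basal cells of NP (C12), and was at 48.7 in C6.

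The question of how the ER genes of alveolar progenitors differ between gestation and lactation was addressed by summing C10 and C11 per mouse and comparing L with G. The G sums come from C10, and the L sums from C11 with 3 and 2 further cells of C10. Of the 43 members tested, 30 rose and 0 fell, beside 15.7% of all 8446 genes tested that rose and 12.3% that fell. At an unadjusted p under 0.05, with no share of all genes at hand, 33 members passed in either direction. By DESeq2 26 rose and 0 fell, beside 9.71% and 3.84% of all genes. Among the 10 chaperones 9 rose, with Canx at a log2 fold change of 0.45 as the remaining member, and all 4 oligosaccharyltransferase genes rose. Of the 4 TRAP genes, 1 passed the test. The median log2 fold change was 0.87 over the members and -0.03 over all genes. With no scaling factors and the non-milk total, the median of all genes was -0.21, 27 members rose and 1 fell, beside 12.3% and 18.8% of all genes.

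Hspa5 (BiP, chr2:34771970-34777547), the main Hsp70 chaperone of the ER lumen, was at 3234 and 3023 non-milk CPM in the L mice and at 778 and 619 in the G mice. It rose by a log2 fold change of 2.36 ± 0.17 (SE, edgeR, adjusted p = 1.70e-05). Sdf2l1 (chr16:17130138-17132383), which works beside BiP and its J-protein Dnajb11, was at 335 and 241 in L and 46.9 and 35.0 non-milk CPM in G. Its rise of 3.02 ± 0.22 (adjusted p = 1.71e-05) was the largest among the members, and the L and G mice lay far apart for both genes. Herpud1 (chr8:94386438-94395377) was at 108 and 75.7 in L and at 13.1 and 15.6 non-milk CPM in G, resting on 17 and 25 UMIs in the G1 and G2 sums of C10. It rose by 2.86 ± 0.27 (adjusted p = 7.92e-05).

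Xbp1 (chr11:5520659-5525893), the transcription factor that the Ire1 sensor activates by splicing its mRNA, was at 430 and 295 in L and 68.4 and 59.4 non-milk CPM in G. It rose by 2.71 ± 0.21 (adjusted p = 2.54e-05). These 3' counts do not tell the spliced from the unspliced form. Pdia4, a disulfide isomerase bound to BiP, was at 76.2 and 53.7 in L and 19.2 and 15.6 non-milk CPM in G, with a rise of 2.11 ± 0.28 (adjusted p = 0.000541). For all 5 genes both L mice lay above both G mice, with or without milk transcripts in the total. The same held for each of the 30 members past the test. That test had picked them from the same mice, so this order adds no support. Ddit3 also rose (1.58 ± 0.28, chosen after its value was seen), whereas Atf4 at 0.34 ± 0.16 and Atf6 at 0.07 did not pass the test.

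Promoters of the members were searched for the ER stress response element, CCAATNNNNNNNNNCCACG, to which Atf6 and Xbp1 are known to bind, and for its shorter relative, the ER stress response element II, which is ATTGG and CCACG with any single base between them. RefSeq windows of 300 bases (250 before to 50 after the start site, GRCm38.p6, both strands searched) were at hand for 37 of the 44 members. The longer element stood in 7 of the 37 members, which had 38 windows, and in 0.119% of all 32851 windows. The shorter stood in 2 of the 37 members and in 0.0365% of all windows. Members and elements were both picked for their known part in the ER, so these shares are a description with no test. The 2 motifs did not overlap in any member. The matches are shown because 8 of these 9 genes rose in the progenitors, and 7 of the 9 are chaperones. Each is written from the CCAAT or ATTGG end, with the element in capitals and 5 flanking bases on each side.
Hspa5: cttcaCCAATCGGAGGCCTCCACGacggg
Calr: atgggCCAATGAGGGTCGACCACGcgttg
Hsp90b1, upstream match: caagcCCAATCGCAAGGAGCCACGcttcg
Hsp90b1, match on the other strand: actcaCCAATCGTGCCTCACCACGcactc
Canx: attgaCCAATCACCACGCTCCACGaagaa
Pdia6: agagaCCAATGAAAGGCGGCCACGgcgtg
Dnajc3: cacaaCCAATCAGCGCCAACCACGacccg
Creld2: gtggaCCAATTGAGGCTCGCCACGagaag
Herpud1, element II: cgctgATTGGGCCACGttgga
Dnajb11, element II: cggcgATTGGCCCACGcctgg

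The Hspa5 element lies at chr2:34772025-34772043, 46 bases before the start site. The Hsp90b1 elements lie at chr10:86705638-86705656 and chr10:86705533-86705551, the Calr element at chr8:84847075-84847093 and the Herpud1 element at chr8:94386377-94386387. The whole windows of Hspa5 (chr2:34771840-34772139, plus strand) and Hsp90b1 (chr10:86705395-86705694, minus strand) show where the elements, in capitals, sit, and Hsp90b1 is the member with a pair of them.
Hspa5 window: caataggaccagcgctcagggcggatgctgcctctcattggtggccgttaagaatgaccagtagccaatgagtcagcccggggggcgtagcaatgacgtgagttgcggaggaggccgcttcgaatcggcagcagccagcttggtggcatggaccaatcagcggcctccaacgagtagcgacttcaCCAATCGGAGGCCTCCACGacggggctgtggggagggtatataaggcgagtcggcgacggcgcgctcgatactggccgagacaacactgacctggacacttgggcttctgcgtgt
Hsp90b1 window: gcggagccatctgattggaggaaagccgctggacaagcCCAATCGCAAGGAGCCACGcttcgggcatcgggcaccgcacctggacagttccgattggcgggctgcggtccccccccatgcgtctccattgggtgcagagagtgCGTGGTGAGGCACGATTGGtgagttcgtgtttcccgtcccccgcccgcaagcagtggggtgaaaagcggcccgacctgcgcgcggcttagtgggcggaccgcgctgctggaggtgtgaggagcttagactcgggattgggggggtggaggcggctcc

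Of the 9 members with an element, 8 rose in the progenitors from G to L. Over all 9, Canx included, the log2 fold changes ran from 0.45 to 2.86 (Herpud1) with a median of 1.48. The 27 tested members whose windows held neither element had a median of 0.76, and 18 of them rose. Sdf2l1, with the largest rise of all members, was among those 27. In the differentiated cells from G to L the medians were 0.50 with and 0.50 without an element, and 2 of 9 against 11 of 27 rose. Over the bins of C8 cells described below, 5 of 9 with and 22 of 27 without an element were higher in both mice. A match to these letters is a description of sequence, and binding was not measured here.

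In differentiated alveolar cells, C8 and C9 were summed per mouse, the G sums come from C8, and the L sums from C9 with 1 further cell of C8 in each mouse. Of the 43 members, 17 rose and 0 fell from G to L, beside 9.54% of all 11860 genes that rose and 9.17% that fell. At an unadjusted p under 0.05, with no share of all genes at hand, 26 members passed in either direction. By DESeq2 21 rose and 0 fell, beside 11.998% and 7.24% of all genes. The members that rose were spread over the pathway: 3 of 4 genes of the TRAP complex, 2 of 4 of the oligosaccharyltransferase, 2 of 5 of the signal peptidase, 5 of 10 chaperones and 1 of 5 stress regulators. Calr, Hsp90b1 and Pdia3, which rose in the progenitors, had log2 fold changes of -0.15, -0.17 and -0.11 here. The median was 0.50 over the members and -0.14 over all genes.

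Qsox1 (chr1:155776029-155812889) was at 426 and 294 non-milk CPM in the L mice and 51.4 and 42.8 in the G mice. It rose by 3.12 ± 0.18 (SE, edgeR, adjusted p = 2.00e-07), the largest rise here, while in the progenitors it was at 0.72 ± 0.25 and did not pass the test. Xbp1 was at 797 and 619 in L and 198 and 177 non-milk CPM in G, and it rose by 2.11 ± 0.18 (adjusted p = 5.70e-06). Sdf2l1 was at 131 and 149 in L and 49.6 and 42.0 non-milk CPM in G, with a rise of 1.84 ± 0.20 (adjusted p = 4.15e-05). Both L mice lay above both G mice for each of these 3 genes.

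Ssr4, the delta subunit of the TRAP complex (chrX:73787028-73790830), was at 1338 and 1085 in L and 672 and 576 non-milk CPM in G. It rose by 1.15 ± 0.19 (adjusted p = 0.00123). Spcs3, a subunit of the signal peptidase, was at 59.1 and 46.0 in L and 29.5 and 24.3 non-milk CPM in G, and its rise of 1.15 ± 0.28 (adjusted p = 0.0125) rests on 19 and 20 UMIs in the C9 sums. In non-milk CPM both L mice lay above both G mice for all 17 members, which the test had picked from the same mice. In CPM with milk transcripts this held for 6 of the 17, and 3 lay below both G mice. With no scaling factors and the non-milk total, the median of all genes was -0.36, 15 members rose and 2 fell, beside 7.78% of all genes higher and 15.2% lower. Without the G2 mouse fewer members and fewer of all genes passed the test. The median was then 0.66 over the members and -0.03 over all genes.

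**Figure D2:**
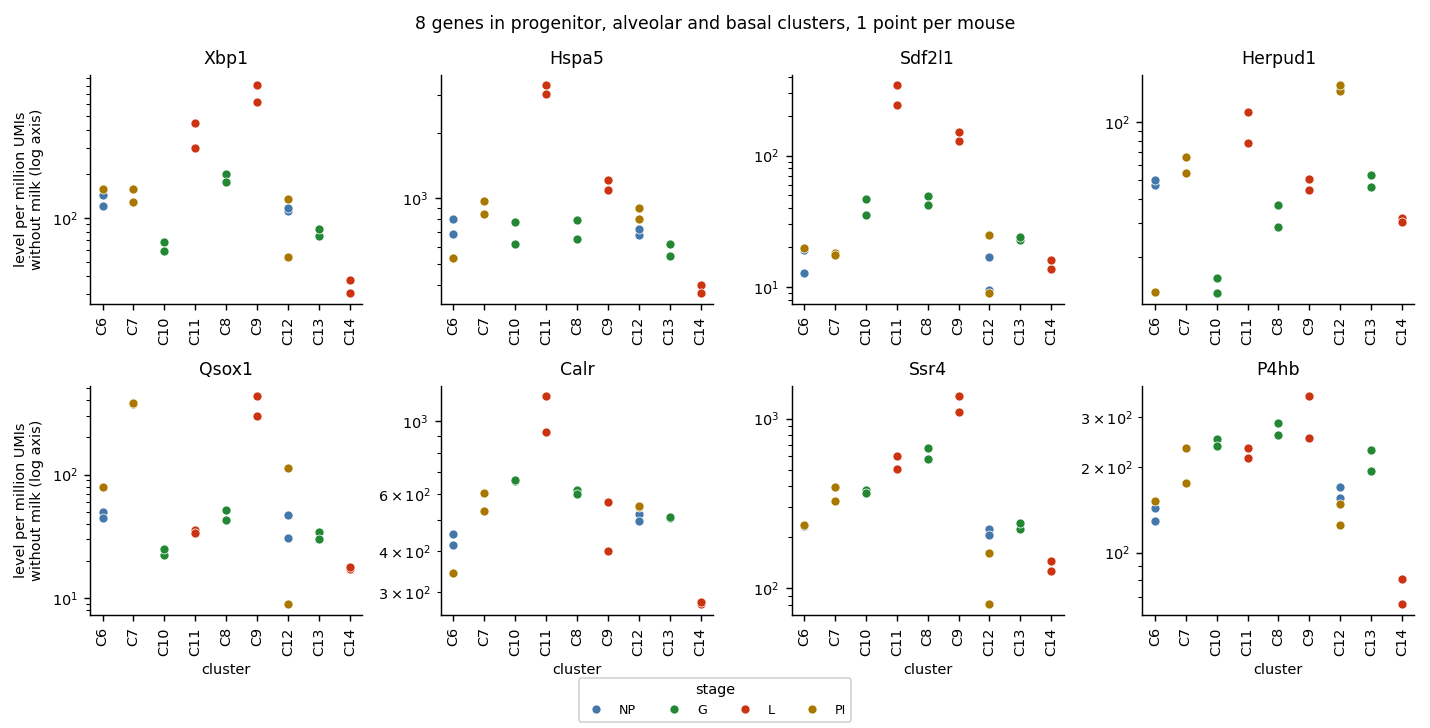
Level of 8 genes (vertical log axes, non-milk CPM) in the progenitor, alveolar and basal clusters (horizontal axis), 1 point per mouse coloured by stage. Xbp1 (809 and 622) and Ssr4 (1360 and 1092) are highest in the C9 cells of lactation, and Hspa5 (3330 and 3039) and Sdf2l1 (346 and 245) in the C11 cells of lactation.

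Other transcripts moved with the same comparisons. A list of 16 genes known to be induced by tissue dissociation rose from G to L in 13 of 16 genes in the progenitors and 13 of 16 in the differentiated cells, with summed levels of 33899 and 26555 non-milk CPM in C11 against 17759 and 14942 in C10, and 21131 and 20390 non-milk CPM in C9 against 13016 and 9544 in C8. The 4 basal markers rose in both, at 5157 and 3637 non-milk CPM in C11 against 163 and 222 in C10, and 3741 and 1549 non-milk CPM in C9 against 145 and 130.2 in C8. The 3 immune markers summed to 317 and 245 non-milk CPM in C11 against 28.4 and 32.5 in C10, and to 392 and 90.2 in C9 against 57.0 and 65.3 in C8, where all 3 rose with a median log2 fold change of 3.72. The 2 plasma cell markers found in the files were at 0 in C9 and C11. The basal cells of lactation (C14) held 33197 and 29815 CPM of the basal markers, beside the chaperone sums of C14 given above. The part of these transcripts in the changes of the ER genes was not tested.

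Within each lactating mouse C9 was set beside C11 on non-milk totals, as a description. Of 43 members, 22 were higher in C9 in both mice, 17 lower and 4 mixed, beside 24.8% of all 5398 genes higher and 42.1% lower in both. Qsox1 was higher by log2 ratios of 3.56 and 3.10 in the L1 and L2 mice, Ssr4 by 1.18 and 1.11, Ssr2 by 1.04 and 0.94 and Xbp1 by 0.87 and 1.05. Hspa5 was lower at -1.45 and -1.47, Hsp90b1, the ER Hsp90, at -1.51 and -1.55, and Calr, the lectin chaperone calreticulin, at -1.08 and -1.21. All 4 TRAP genes and all 3 Sec61 genes were higher in C9 in both mice, while 8 of the 10 chaperones were lower there in both and Dnajb9 and Dnajc3 were mixed.

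In gestation, C8 was above C10 in both mice for 37 members, below for 3 and mixed for 3, beside 37.2% of all 11661 genes higher and 35.3% lower. Xbp1 had the largest log2 ratios, at 1.52 and 1.56, and Sec11c, a catalytic subunit of the signal peptidase, was at 1.24 and 1.07. Hspa5 was at 0.03 and 0.08 and Calr at -0.09 and -0.14.

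The order within C8 was read by ranking the 1926 and 1818 C8 cells of the G1 and G2 mice by their share of milk protein UMIs and cutting them into 5 bins. The milk share rose from 2.03% to 18.3% in G1 and from 1.00% to 12.6% in G2. The summed level of the 44 members rose with every bin, from 7833 to 10974 non-milk CPM in G1 and from 7755 to 9785 in G2. From the lowest to the highest bin 32 of 43 members were higher in both mice and 5 lower, beside 39.6% of 7548 genes higher and 37.4% lower. The median UMIs per cell also differed between the lowest and highest bins, at 8553 and 11411 in G1 and 6850 and 8715 in G2.

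Qsox1 had the steepest slope, from 27.1 to 81.3 non-milk CPM in G1 and 21.3 to 70.7 in G2. Xbp1 went from 122 to 268 in G1 and 116 to 247 in G2, Sec11c from 137 to 309 and 123 to 247, and Ssr4 from 452 to 918 and 420 to 772 non-milk CPM. The log2 ratio of the last to the first bin was 1.55 and 1.68 for Qsox1 and 1.13 and 1.09 for Xbp1. The leading chaperones moved less: Hspa5 was at 666 and 906 in G1 and 619 and 692 in G2, and Hsp90b1 at 397 and 428 in G1 and 445 and 400 non-milk CPM in G2. Calr fell from 655 to 546 and from 656 to 540, and Creld2, an ER protein induced by stress, from 47.8 to 40.4 and from 46.9 to 41.1 non-milk CPM. Canx, Pdia3 and Srp9 were the other members lower in both mice.

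**Figure D3:**
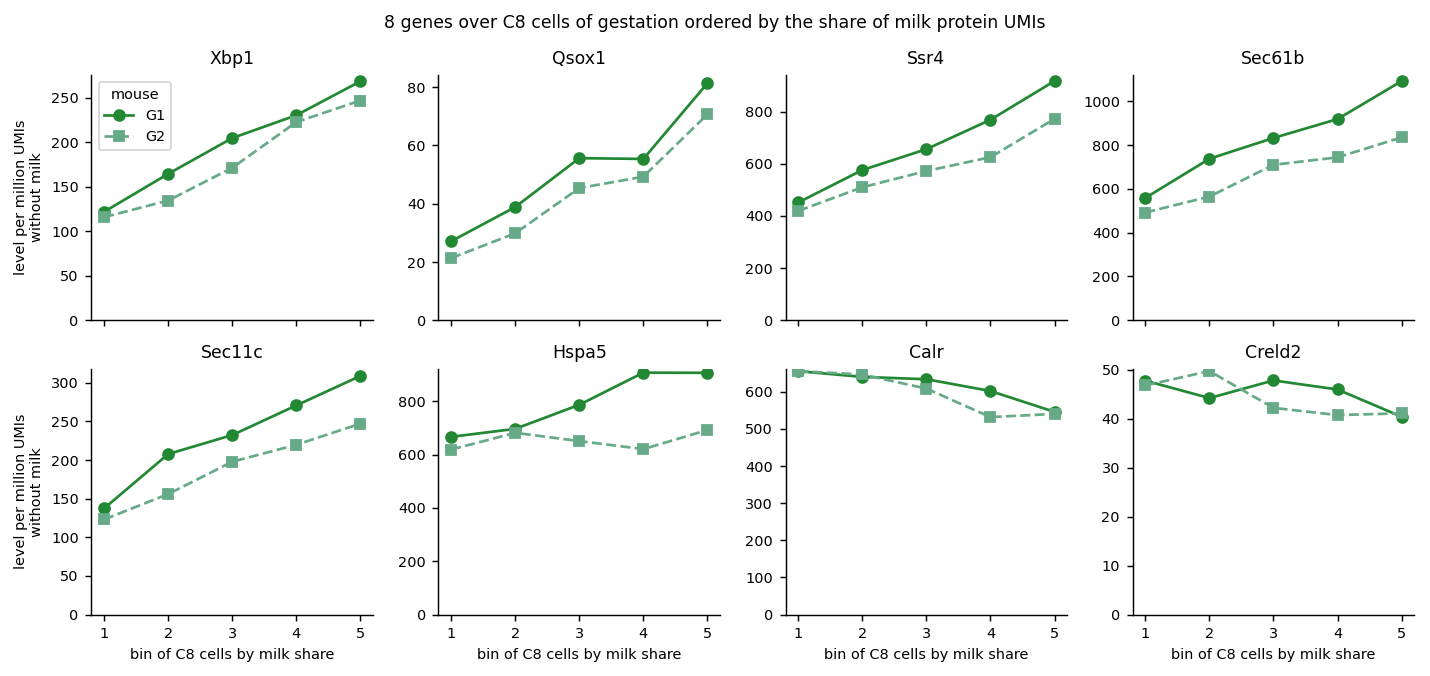
Level of 8 genes (vertical axes from 0, non-milk CPM) over 5 bins of C8 cells ordered by their share of milk protein UMIs (horizontal axis), 1 line per gestation mouse. The lines of Xbp1, Qsox1, Ssr4, Sec61b and Sec11c climb in both mice, and Calr and Creld2 decline.

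In basal cells, the contractile layer around the alveoli, the direction was the opposite. C12, C13 and C14 were summed per mouse in a fit of all 4 stages, and from G to L 27 of 43 members fell and 2 rose, beside 24.9% of all 11870 genes that fell and 25.2% that rose. The median was -0.45 over the members and 0.03 over all genes. With no scaling factors the median of all genes was -0.10. There 31 members fell and 1 rose, beside 29.7% and 20.5% of all genes. All 4 TRAP genes fell, with 7 of 10 chaperones, 4 of 6 disulfide enzymes, 3 of 5 translocon genes and 3 of 5 stress regulators.

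Sec61a1, the channel-forming subunit of the translocon, was at 32.7 and 31.4 CPM in the L mice and at 90.04 and 95.6 in the G mice. It fell by 1.40 ± 0.14 on the log2 scale (SE, edgeR, adjusted p = 5.23e-07). P4hb, the protein disulfide isomerase PDI, was at 80.5 and 65.8 in L and 195 and 228 CPM in G, and it fell by 1.40 ± 0.14 (adjusted p = 5.66e-07). Xbp1 was at 37.5 and 30.5 in L and 76.0 and 83.5 CPM in G, a fall of 1.10 ± 0.17 (adjusted p = 4.40e-05). Each of these genes was lower in both L mice than in either G mouse.

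Ssr1, the alpha subunit of the TRAP complex, was at 60.7 and 60.8 in L and 133 and 144 CPM in G (log2 fold change -1.06 ± 0.13, adjusted p = 5.44e-06). Pdia6, another disulfide isomerase, was at 86.2 and 78.9 in L and 178 and 168 CPM in G (-0.94 ± 0.14, adjusted p = 2.78e-05). The 2 members that rose were Sec61g, the small gamma subunit of the channel, at 106 and 98.3 against 78.5 and 81.0 CPM (0.48 ± 0.13, adjusted p = 0.00651), and Srp14, at 199 and 196 against 158 and 155 CPM (0.46 ± 0.14, adjusted p = 0.0131). Sec61g turned to -0.13 when each sum was thinned to the smallest UMI total. There 34 members were tested, with a median of -0.54, and 1 passed, beside 537 of all 2711 genes. The dissociation list rose in 15 of 16 genes, from 9920 and 6398 CPM in C13 to 32577 and 26705 in C14, and its part was not tested.

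**Figure D4:**
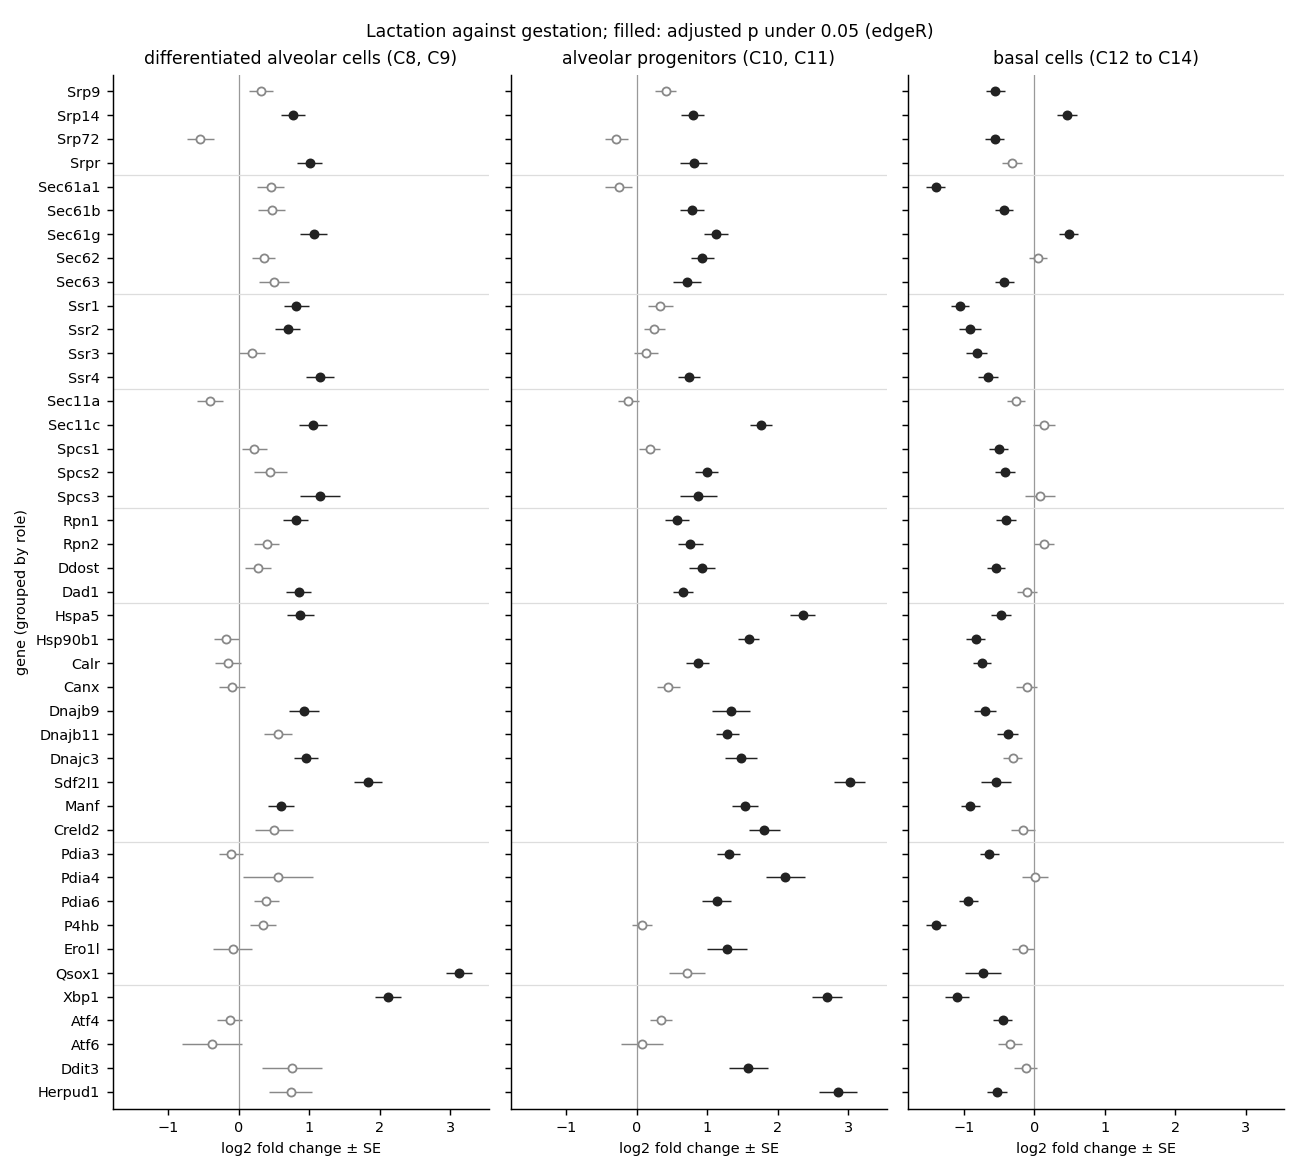
Log2 fold change of 43 genes from gestation to lactation (horizontal axes, with SE) in differentiated alveolar cells, alveolar progenitors and basal cells, grouped by role (vertical axis), filled where the adjusted p is under 0.05. The chaperones reach 3.02 in the progenitors, Qsox1 reaches 3.12 in the differentiated cells, and 36 of the 43 points of the basal panel lie below 0.

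Whether the change from G to L differed between alveolar and basal cells was tested as an interaction with mouse as a term, since both sums come from the same mice. For 29 of 43 members the change was more positive in the differentiated alveolar cells and for 0 more negative, beside 8.29% and 10.2% of all 13529 genes. At an unadjusted p under 0.05, with no share of all genes at hand, 32 members passed in either direction. DESeq2 gave 26 more positive and 0 more negative, beside 7.52% and 2.18% of all genes. Qsox1 differed by 3.78 ± 0.23 (log2), Xbp1 by 3.15 ± 0.20, Sdf2l1 by 2.31 ± 0.27, Ssr1 by 1.81 ± 0.23 and Sec61a1 by 1.79 ± 0.25. All 4 TRAP genes and 7 of 10 chaperones were among the 29. In this fit the spread of each gene was drawn almost wholly from all genes (prior degrees of freedom 1265 beside 2 residual), so its p-values are smaller than 2 mice a stage alone would give. Fewer members and fewer of all genes passed without the G1 or without the G2 mouse. The median difference of the members was then 0.92 and 0.72, beside -0.39 and -0.30 over all genes.

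In basal cells from NP to G, 3 members rose and 5 fell, beside 21% and 18.9% of all genes, a smaller share than of all genes in each direction, and this comparison shares its G sums with the one above. Herpud1 was at 52.8 and 45.6 CPM in G and 154 and 147 in NP, a fall of 1.54 ± 0.14 (adjusted p = 7.49e-07). Hsp90b1 was at 691 and 617 in G and 340 and 362 CPM in NP, a rise of 0.97 ± 0.14 (adjusted p = 4.08e-05), and Sdf2l1 rose by 1.01 and P4hb by 0.45. Spcs3, Sec61g, Dnajb11, the J-protein partner of BiP, and Manf, a secreted factor kept in the ER, fell, at -0.73, -0.70, -0.70 and -0.43. The direction split changed with the scaling. It was 6 higher and 4 lower by DESeq2, beside 21.1% and 14.9% of all genes. With no scaling factors it was 3 and 9, beside 18.9% and 22.1%. The count was smaller whichever mouse was left out, and so was that of all genes. Other lists moved with this comparison: 10 of 16 dissociation genes rose and 1 fell, 3 of 4 fibroblast markers rose, and the 3 luminal keratin and Epcam genes and the 3 hormone receptors fell, and their part was not tested.

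The basal cells of PI numbered 27 and 53 in C12, and the depth there limits the comparison. From NP to PI 1 member rose and 2 fell, beside 1.92% and 2.54% of all genes, and the median of all genes was -0.20. Sec61g was at 69.9 and 67.2 CPM in PI and 128 and 146 in NP (-1.15 ± 0.25, adjusted p = 0.0120), and Sec61b, the beta subunit of the channel, at 149 and 173 against 274 and 261 CPM (-0.84 ± 0.19, adjusted p = 0.0171). Ddit3 was at 236 and 112 CPM in PI and 66.5 and 73.7 in NP (0.97 ± 0.26, adjusted p = 0.0392). Whichever mouse was left out, fewer members and fewer of all genes passed. Without the PI2 mouse the median was -0.51 over the members and -0.59 over all genes, and without NP2 it was -0.24 and -0.19. By DESeq2 2 rose and 2 fell, beside 4.09% and 1.84% of all genes. Of the 4 basal markers 1 rose and 3 fell. With no scaling factors the median of all genes was -0.07, and 2.89% of all genes were higher and 1.63% lower.

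Across the secretory lineage, C6 to C11 were summed per mouse in a fit of the 4 stages and G was set against NP. Most NP cells are the luminal progenitors C6 and most G cells the differentiated cells C8, so stage and the make-up of the lineage cannot be told apart. Of 43 members 21 rose and 4 fell, beside 30.5% and 27.3% of all 11738 genes, with a median of 0.43 over the members and 0.04 over all genes. All 4 oligosaccharyltransferase genes rose, with 4 of 5 signal peptidase, 3 of 4 TRAP, 3 of 4 tested SRP and 3 of 10 chaperone genes.

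The levels of this comparison are in CPM with milk transcripts kept in the total, which lowers those of G. Sec61b was at 728 and 611 CPM in G and 201 and 204 in NP, a rise of 1.86 ± 0.16 (edgeR, adjusted p = 1.15e-06). Ssr4 was at 596 and 531 in G and 233 and 230 CPM in NP, a rise of 1.42 ± 0.15 (adjusted p = 5.53e-06), and Sdf2l1 at 44.9 and 39.3 against 12.6 and 19.4 CPM, a rise of 1.57 ± 0.22 (adjusted p = 6.87e-05). P4hb rose by 1.02 ± 0.16 and Sec11a by 0.84 ± 0.13. The 4 that fell were Atf6 at 18.5 and 22.7 CPM in G against 39.95 and 38.8 in NP (-0.80 ± 0.15, adjusted p = 0.000688), Dnajb11 (-0.60), Herpud1 (-0.58) and Atf4 (-0.44 ± 0.13, adjusted p = 0.0117). Atf6, Herpud1 and Atf4 are stress regulators, while Xbp1 rose (0.47 ± 0.16). Hspa5 was at a log2 fold change of -0.02. The 3 luminal keratin and Epcam genes fell in this comparison and 2 of 4 basal markers rose, and their part was not tested.

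In 3 luminal cell types PI was set against NP. The paper's vaginal smears put NP1, NP2 and PI2 in oestrus and PI1 in dioestrus, and the age of the PI mice is not given. Parity and age cannot be told apart here, and the part of age and oestrus stage was not tested. In the luminal progenitors (C6 and C7) 13 members rose and 3 fell, beside 13.9% and 13% of all 10766 genes. In the hormone-sensing progenitors (C1 and C2) 10 rose and 1 fell, beside 9.58% and 7.05% of 10692. In the hormone-sensing differentiated cells (C3 to C5) 6 rose and 1 fell, beside 7.64% and 6.65% of 11994. The medians of the members were 0.27, 0.25 and 0.09, and those of all genes -0.02 in each. Markers of other cell types also moved, and their part was not tested. In the hormone-sensing differentiated cells the 3 basal markers tested fell with a median log2 fold change of -2.56, beside 1 endothelial and 1 luminal progenitor marker. In the hormone-sensing progenitors 1 of 3 basal markers and 1 endothelial marker fell, and in the luminal progenitors 1 immune marker rose and 1 of 2 fibroblast markers fell.

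Qsox1 rose in all 3. In luminal progenitors it was at 365 and 375 CPM in PI and 49.5 and 44.7 in NP (3.05 ± 0.14, adjusted p = 2.78e-07), in hormone-sensing progenitors at 513 and 425 against 198 and 152 CPM (1.40 ± 0.15, adjusted p = 8.91e-05), and in differentiated hormone-sensing cells at 698 and 474 against 310 and 217 CPM (1.09 ± 0.21, adjusted p = 0.00555). Sec61g fell in all 3. It was at 78.9 and 59.8 against 114 and 155 CPM in luminal progenitors (-0.87 ± 0.18, adjusted p = 0.00445), at 87.7 and 62.2 against 129 and 124 in hormone-sensing progenitors (-0.80 ± 0.16, adjusted p = 0.00484) and at 80.8 and 81.6 against 143.0 and 143.2 CPM in the differentiated cells (-0.87 ± 0.15, adjusted p = 0.00278). Neither gene's PI mice overlapped the NP mice in any of these cell types.

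In luminal progenitors the other leading rises were Ssr4 at 321 and 386 against 233 and 231 CPM (0.69 ± 0.14, adjusted p = 0.00357), Ddost, a subunit of the oligosaccharyltransferase, at 139.4 and 139.1 against 95.7 and 91.5 CPM (0.65 ± 0.12, adjusted p = 0.00264), P4hb (0.65 ± 0.15) and Spcs1 (0.55 ± 0.12). Creld2 (-0.53 ± 0.16) and Dnajb11 (-0.39 ± 0.13) fell with Sec61g. The hormone-sensing cells had chaperones in front. Calr was at 451 and 549 against 323 and 285 CPM in the progenitors (0.71 ± 0.15, adjusted p = 0.00772) and at 347 and 502 against 247 and 209 CPM in the differentiated cells (0.85 ± 0.21, adjusted p = 0.0183). Dnajc3, which binds unfolded chains and restrains the Perk sensor, rose by 0.66 ± 0.13 and 0.70 ± 0.16 in these 2 cell types, Hspa5 (0.56) and Dad1 (0.55) in the progenitors, and Hsp90b1 (0.86) and Sec11c (0.60) in the differentiated cells.

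The counts of these comparisons, of members and of all genes, changed when single mice were left out. In luminal progenitors fewer members and fewer of all genes passed when either NP mouse was left out. The split was 11 higher and 1 lower by DESeq2, beside 8.28% and 6.48% of all genes. With no scaling factors it was 9 and 4, beside 11.7% and 15.3%. The same held in hormone-sensing progenitors. There the median of the members was 0.22 without the NP1 mouse and 0.25 without NP2, beside -0.002 and -0.008 over all genes. In the differentiated cells more members and more of all genes passed without the PI1 mouse, and fewer of both without NP2. The medians of the members were 0.19 and 0.04, beside -0.03 and -0.01 over all genes.

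**Figure D5:**
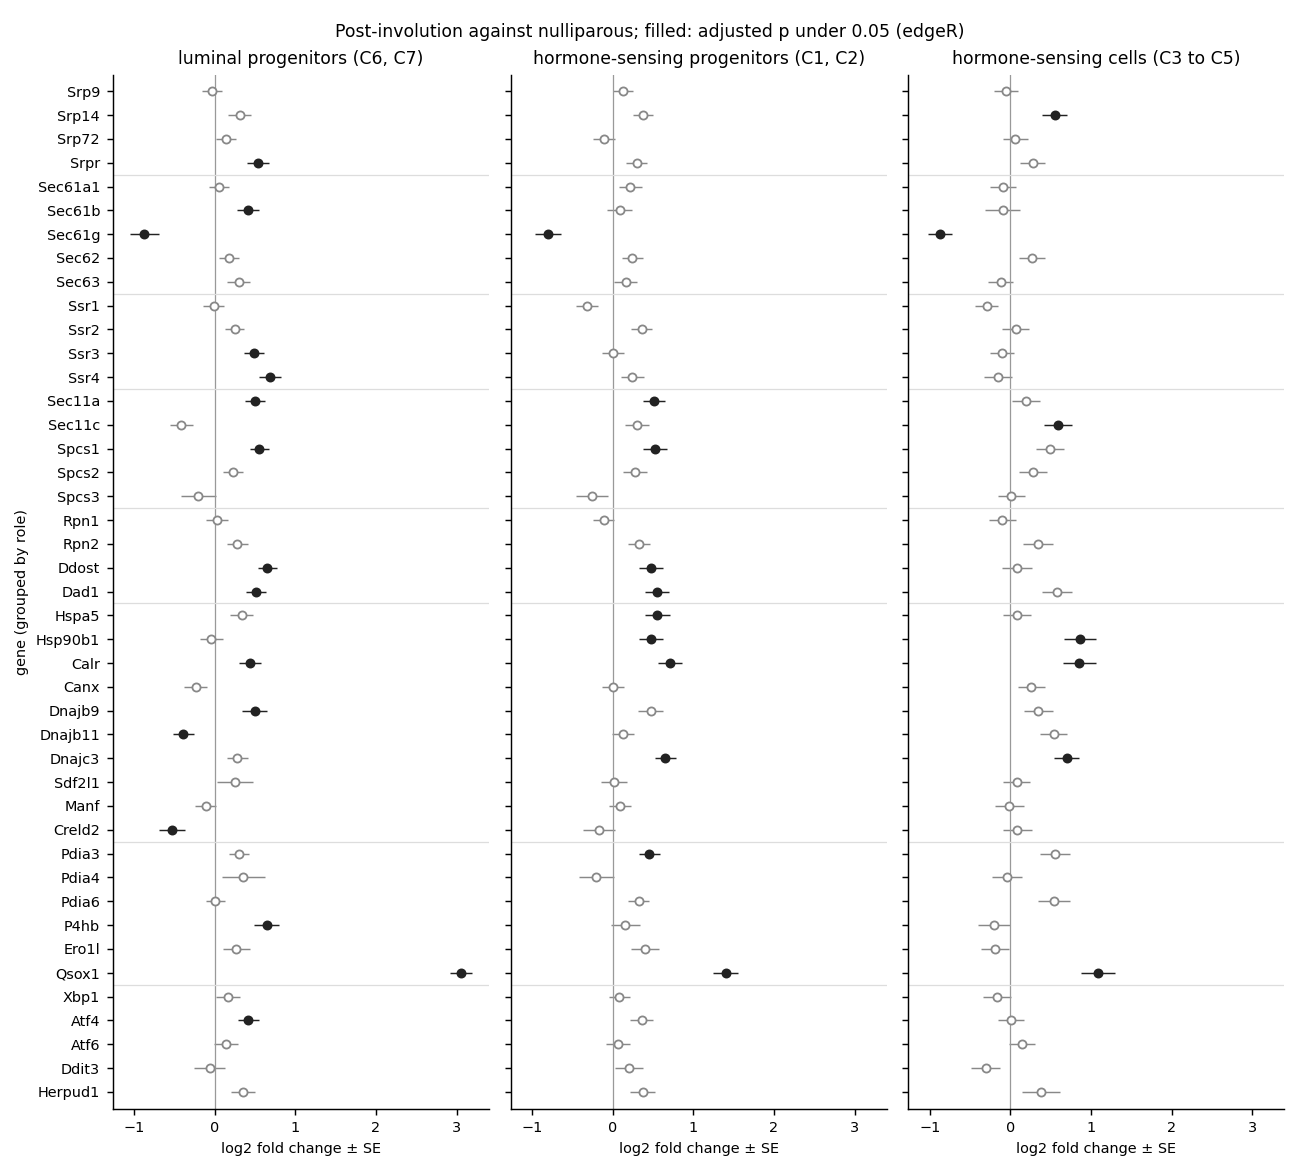
Log2 fold change of 43 genes from nulliparous to post-involution mice (horizontal axes, with SE) in luminal progenitors, hormone-sensing progenitors and hormone-sensing cells, grouped by role (vertical axis), filled where the adjusted p is under 0.05. Qsox1 is the point farthest right in each panel (3.05, 1.40 and 1.09), and Sec61g lies left of 0 in all 3.

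The difference of the PI change between luminal progenitors and differentiated hormone-sensing cells was tested with mouse as a term. It was more positive in luminal progenitors for 4 members and more negative for 3. Of all 12160 genes, 6.7% and 6.27% were so, shares close to those of the members. Qsox1 differed by 1.98 ± 0.20 (adjusted p = 5.91e-06), P4hb by 0.87 ± 0.17, Ssr4 by 0.85 ± 0.17 and Ssr3 by 0.59 ± 0.17. Sec11c differed by -1.0 ± 0.18, Dnajb11 by -0.92 ± 0.18 and Hsp90b1 by -0.87 ± 0.20. With no scaling factors the median of all genes moved from 0.01 to -0.10. The split was then 3 and 6, beside 5.06% and 8.16% of all genes. Without the PI1 mouse the median was 0.06 over the members and 0.07 over all genes.

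Other genes of the pathway, from lists of symbols also chosen with earlier results of these data known, moved less evenly. In the progenitors from G to L, 6 of 18 tested genes of ER-associated degradation rose and 1 fell, 6 of 18 other folding genes rose and 1 fell, 5 of 17 other translocation and glycosylation genes rose and 1 fell, and 7 of 13 genes of export and retrieval rose. The largest among them were Derl3 (3.51 ± 0.39), a derlin of ER-associated degradation, and Fkbp11 (3.50 ± 0.26), a secretory prolyl isomerase. Of the targets of the integrated stress response, which Atf4 and Ddit3 govern, 9 of 13 rose in the progenitors and 7 of 15 in the differentiated cells, with 1 lower in the latter. Nupr1 rose most in the differentiated cells (3.06 ± 0.24) and Trib3, a pseudokinase induced by Atf4 and Ddit3, in the progenitors (3.07 ± 0.52).

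In basal cells from G to L, where 24.9% of all genes fell and 25.2% rose, 13 of 20 other folding genes fell and 2 rose, 9 of 17 other translocation genes fell and 2 rose, 6 of 17 degradation genes fell and 1 rose, and 7 of 14 export genes fell. Fkbp11 fell by 1.82 ± 0.17 there. The integrated stress response targets were split at 5 higher and 5 lower of 15, and the stress sensors at 2 and 2 of 11. In luminal progenitors from NP to PI 8 of 14 export and retrieval genes rose and 1 fell, and 4 of 10 stress sensors rose, among them Eif2ak3 (Perk, 1.11 ± 0.25).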

How the data were processed

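Single-cell libraries (10x Chromium 3' version 2) of 8 mice were deposited as UMI counts per gene and cell, made by the authors with Cell Ranger on the mm10 genome. The submitters' processing notes name STAR and mm10. The authors also deposited a table of cells with quality flags, clusters and the fraction of mitochondrial UMIs, a value not used in any test here. Cells that passed all flags of the authors were kept in C1 to C19, and their doublet cluster was left out. Cells could not be joined to a barcode in 1 case.

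UMIs were summed per mouse and cluster where at least 20 cells were present. The sums of a cell type were tested with edgeR's quasi-likelihood test (edgeR 4.0.16, R 4.3.3, TMM scaling, filterByExpr with a minimum count of 10, Benjamini-Hochberg adjustment over all genes tested, threshold 0.05). All adjusted p-values and SEs come from these fits. Levels within a mouse and over bins of C8 cells are descriptions with no test. Pairs of clusters were compared where a gene had at least 20 UMIs, with a pseudocount of 1. Cells are not replicates, and with 2 mice a stage the p-values rest on the spread borrowed across genes. Alternatives were DESeq2 1.42.0, no scaling factors, no filter, milk genes left out of the table, thinned sums, a test against a log2 fold change of 1, the main cluster only, a replicate block and leaving out each mouse. The scripts were tested on simulated data.

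The 44 members and the other lists were chosen with earlier results of these data known. Named in each comparison were up to 5 members with the largest rise and up to 5 with the largest fall among those past the test with at least 20 CPM. Any other member named was chosen after its values were seen. Where mice of the compared stages are said not to overlap, the members had passed the test on those same mice, so this adds no support. Gene positions were taken from GENCODE M21 (GRCm38, the build of mm10), in which all 44 gene IDs matched. The same numbers in the labels belong to different mice, and the correlation of their deviations from the group means ran from -0.137 to 0.212.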

Additional observations from a re-analysis of the deposited data

Results flagged for a closer look

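A difference of effect between cell types was tested directly in a pair of comparisons. For 7 of 43 members the PI against NP effect was unequal in luminal progenitors and in differentiated hormone-sensing cells. It was more positive for 4 and more negative for 3, beside 6.7% and 6.27% of all 12160 genes, shares close to those of the members. The log2 differences were 1.98 for Qsox1, 0.869 for P4hb, 0.855 for Ssr4, 0.589 for Ssr3, -1.0 for Sec11c, -0.916 for Dnajb11 and -0.87 for Hsp90b1. The change from G to L was more positive in differentiated alveolar than in basal cells for 29 members and more negative for 0. Of all 13529 genes, 8.29% were more positive and 10.2% more negative. The members were led by Qsox1 at 3.78, Xbp1 at 3.15, Sdf2l1 at 2.31, Ssr1 at 1.81 and Sec61a1 at 1.79. A positive value means a more positive change in the first cell type named.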

How the results depend on the processing

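Counts of members past the test are given in the order used in the report. A stricter test was against a log2 fold change of 1 at an FDR of 0.01. It left 7 of 43 members in the alveolar progenitors (L against G), beside 352 of 8446 genes. The differentiated alveolar cells had 3 beside 342 of 11860 and basal cells 0 beside 901 of 11870. The difference between alveolar and basal cells had 7 beside 420 of 13529. Basal cells had 1 beside 479 of 11870 from NP to G and 0 beside 18 of 11870 from NP to PI. The secretory lineage had 1 beside 1626 of 11738 and luminal progenitors 1 beside 231 of 10766. Hormone-sensing progenitors had 0 beside 127 of 10692 and hormone-sensing cells 0 beside 121 of 11994. The difference between luminal progenitors and hormone-sensing cells had 1 beside 123 of 12160. Thinning the basal sums to the smallest left 34 members tested, among 2711 genes. Of the members 1 (L against G), 0 (G against NP) and 0 (PI against NP) passed, beside 537, 298 and 178 of all genes. The median log2 fold changes of the members were then -0.54, 0.04 and -0.11, beside -0.45, -0.06 and -0.23 unthinned. Sec61g from G to L turned to -0.13. DESeq2 called 7 in hormone-sensing progenitors, beside 823 of 10692 genes. With no filter 11 passed in hormone-sensing cells, beside 2341 of 17536 genes, and 5 in basal cells from NP to PI, beside 877 of 19205.

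With 1 mouse left out the counts ran from 23 to 32 in alveolar progenitors, 4 to 17 in differentiated alveolar cells, 21 to 24 in basal cells from G to L, 14 to 24 and 6 to 11 in the differences of L against G and of PI against NP, 5 to 6 and 0 to 1 in basal cells from NP to G and to PI, 18 to 22 in the secretory lineage, 5 to 16 in luminal progenitors, 1 to 10 in hormone-sensing progenitors and 4 to 12 in hormone-sensing cells. With the mouse number as a replicate block 11 members passed in hormone-sensing cells, beside 2058 of 11994 genes, and no other count of members moved by over 1.5 times. The numbers do not pair the mice. Of the named members' values under all alternatives, 673 kept their direction and side of the threshold, 127 kept the direction only and 1 reversed. Leaving milk transcripts out of the total moved the summed level of the members from 8476 to 9192 CPM in C8 and from 6916 to 12215 CPM in C9. The smallest sum used was C12 of the PI1 mouse, at 111570 UMIs, and C5 of the G1 mouse held 123242, beside 572463 and 741979 in C9 and 1081043 and 850646 in C11.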
